A study of Rattus norvegicus with 3 samples.

Results

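The enzymes that make and break down heme were followed in rat kidney RNA on 3 Agilent arrays with 2 colours. The list holds 9 genes, namely Alas1, Alas2, Alad, Urod, Cpox and Fech of synthesis and Hmox1, Hmox2 and Blvra of breakdown. Its members are the probes, control spots aside, whose RefSeq accession belongs to 1 of these enzymes, which gave 9 probes, 1 for each gene, of the 30367 probes on the array. Of the 9 genes, 8 were among the 14179 genes tested, and Hmox1 did not pass the filter on dim probes. Of these 14179, 8908 carry a symbol, and the others were counted under their accession or, where there was none, their probe.

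The rats were male Sprague-Dawley animals bought at 5 weeks of age. The G200 group drank water with 200 ppm γ-aminobutyric acid (GABA, an inhibitory neurotransmitter that is also sold as a food supplement) and the negative control drank water with 0 ppm, for 3 weeks by the study's methods. Each array carried control RNA labelled with Cy3 (green) and G200 RNA labelled with Cy5 (red), so every value is a log2 ratio of red over green, and values above 0 stand for more RNA in G200. The labels give 3 rats per group and the study's methods give 8, and 3 arrays, on 1 slide and read in 1 scan, were used here.

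No array had the dyes swapped, and the effect of the dye and that of GABA cannot be told apart. The 3 control channels differed little: over 1109 probes with at least 5 spots that were well above background in green, the median ratio of the variance between arrays to that between replicate spots was 0.554, against 5.74 over 1084 probes in red. Since the control channels differed by less than the replicate spots of an array, they were counted as 1 control sample, and no test against 0 includes how control rats vary. The p-values measure only the spread between these samples.

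Heme is an iron porphyrin that carries oxygen in hemoglobin and electrons in cytochromes. Its synthesis starts in the mitochondrion with 5-aminolevulinate synthase, passes through the cytosol, and ends in the mitochondrion, where ferrochelatase inserts the iron. Breakdown runs through heme oxygenase, which opens the ring to biliverdin and frees the iron and carbon monoxide, and biliverdin reductase, which makes bilirubin. Developing red cells and the liver make most of the body's heme, while the kidney also makes it for its own mitochondrial and microsomal cytochromes.

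With loess normalization between the dyes, Blvra was higher in G200 on all 3 arrays, and Alad and Alas1 were lower on all 3. These were the members past an adjusted p of 0.05 in limma's test, 1 of 8 higher and 2 of 8 lower. Over all genes tested, 11.5% were called higher, 26.0% lower and 37.5% in either direction. The mean log2 ratio of 6 of the 8 members was below 0 and that of 2 above it, and the median over the members was -0.14, against -0.05 over all genes tested. On replicates 1, 2 and 3 the members' median was -0.11, -0.10 and -0.14.

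**Figure D1:**
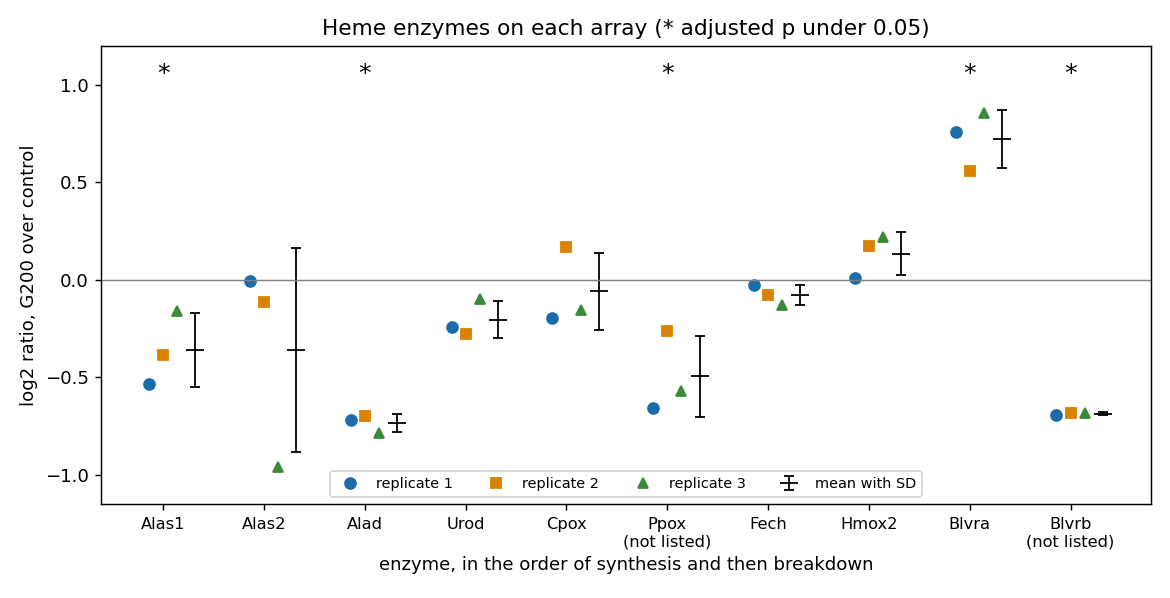
Log2 ratio of G200 over control on each of the 3 arrays (points) for the members tested and for Ppox and Blvrb, with the mean and its SD (bars); enzymes marked as not listed belong to the path but not to the 9 members. Blvra lies above 0 and Alad, Alas1, Ppox and Blvrb below it on every array with loess normalization, while the points of Alas2 are spread from -0.96 to -0.01.

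The directions depended on the scaling between the dyes. With loess, 30.6% of the genes called were higher in G200, against 79.6% with median centring of each array and 96.3% without any dye normalization, and the median log2 ratio of all genes moved from -0.05 to 0.27 and 0.62. With median centring 3 members (Blvra, Hmox2 and Urod) were called higher, against 35.0% of all genes, and 0 lower, against 8.94%. With no normalization 5 (Alas1, Urod, Cpox, Hmox2 and Blvra) were called higher, against 56.5% of all genes, and 0 lower, against 2.14%. The members' median moved along with that of all genes, and the difference between them was -0.09 with loess and 0.04 under either of the others. For this reason many of the values below are also given less the median of all genes under the same scaling.

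Alas1 encodes the housekeeping form of 5-aminolevulinate synthase, the rate-limiting enzyme of heme synthesis in tissues other than the red cell lineage. Its log2 ratio was -0.53, -0.39 and -0.16 on replicates 1, 2 and 3. The mean was -0.36 ± 0.19 (SD, n = 3), a ratio of G200 to control of 0.779 (adjusted p = 0.0235). The 3 values lie on 1 side of 0, with replicate 3 nearest to it. This call was lost when any of the 3 arrays was left out, with adjusted p-values of 0.0780, 0.0775 and 0.0524 without replicates 1, 2 and 3, and from 0.0194 to 0.188 over all 14 alternatives run. Less the median of all genes, Alas1 lay at -0.31 with loess and at 0.12 with median centring, so its side of that median turned with the scaling.

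Alas2 encodes the form of the same enzyme that is specific to developing red cells. Its log2 ratio was -0.01, -0.12 and -0.96 on replicates 1, 2 and 3, averaging -0.36 ± 0.52 (SD, n = 3, adjusted p = 0.165). Replicate 3 stood apart from the other 2, and 98.1% of the genes tested had a smaller SD. The net intensity, which is the spot less its local background before any scaling between the dyes, was 288, 282 and 256 in the control and 822, 366 and 224 in G200, so before scaling the G200 channel had the wider spread. Without replicate 3 the mean was -0.06, and its sign turned with median centring (0.23). Less the median of all genes, Alas2 lay at -0.31 with loess and at -0.04 with median centring.

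Alad encodes 5-aminolevulinate dehydratase, the cytosolic enzyme that joins a pair of aminolevulinate molecules to porphobilinogen. Its log2 ratio was -0.72, -0.70 and -0.78 on replicates 1, 2 and 3. The mean was -0.73 ± 0.05 (SD, n = 3), a ratio of 0.601 (adjusted p = 0.00118). The 3 arrays were nearly equal, and the SD was smaller than that of 89.4% of the genes tested. A lower ratio than that of Alad was found for 6.19% of the genes. Its sign turned with median centring (0.06, adjusted p = 0.780) and with no normalization (0.41), while its value less the median of all genes was -0.21 under both, as compared with -0.68 with loess. Over the 14 alternatives its adjusted p ran from 0.000409 to 0.780.

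**Figure D2:**
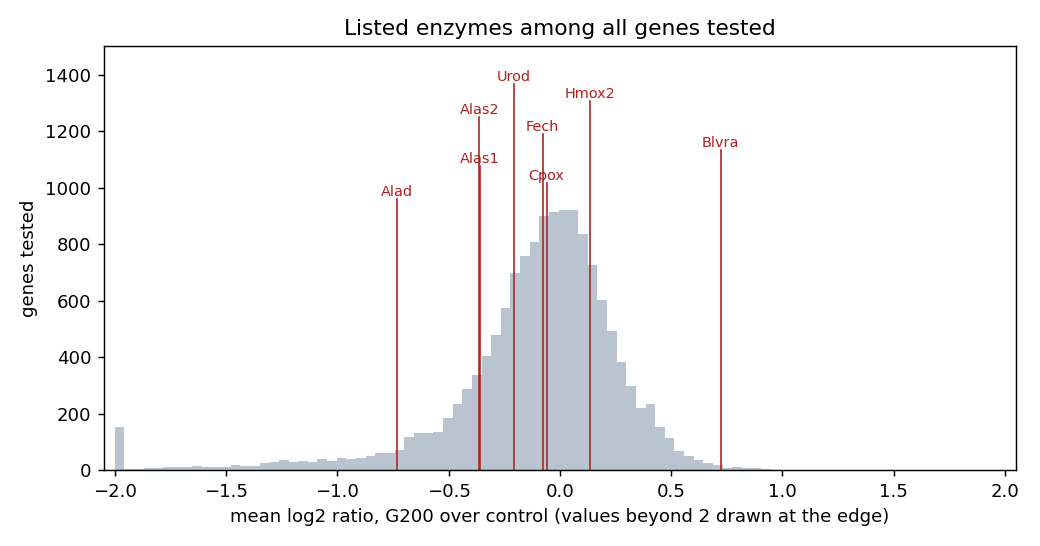
Histogram of the mean log2 ratio of G200 over control for all 14179 genes tested with loess normalization, with lines at the 8 members tested. Blvra lies in the upper tail and Alad in the lower one, and the other members lie in the body of the distribution.

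Urod, which encodes uroporphyrinogen decarboxylase, gave -0.24, -0.28 and -0.10 on replicates 1, 2 and 3. The mean of -0.21 ± 0.09 (SD, n = 3, adjusted p = 0.0628) did not pass the threshold. All 3 arrays were below 0 with loess, but with median centring the mean was 0.55 (adjusted p = 0.0423), which is 0.28 above the median of all genes, and over the alternatives the adjusted p ran from 0.0130 to 0.199. Urod thus changed sides with the scaling, as did Alas1.

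Cpox encodes coproporphyrinogen oxidase of the mitochondrial intermembrane space. Its log2 ratio was -0.19, 0.17 and -0.15 on replicates 1, 2 and 3, averaging -0.06 ± 0.20 (SD, n = 3, adjusted p = 0.630). Replicate 2 was on the other side of 0 from replicates 1 and 3. The 95% confidence interval of the mean, from limma's moderated variance, ran from -0.28 to 0.16.

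Fech encodes ferrochelatase, the last enzyme of synthesis. The log2 ratio was -0.03, -0.08 and -0.13 on replicates 1, 2 and 3, averaging -0.08 ± 0.05 (SD, n = 3, adjusted p = 0.383) with a 95% confidence interval from -0.24 to 0.08. The probe was well above background in both colours on all 3 arrays but dim, with a net intensity of 32.5, 34.0 and 37.5 in the control and 45.0, 22.0 and 35.0 in G200. The median local background was 24 to 25 in green and 49 to 50 in red, and an offset of 50 was added to both colours before the logarithm, so a ratio at this brightness is drawn toward 0.

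Hmox1 and Hmox2 encode the inducible and the constitutive heme oxygenase. Hmox1 was printed in 10 spots on each array. In the control 2, 1 and 3 of them were well above background on replicates 1, 2 and 3, and in G200 10, 0 and 5. The mean net intensity over the spots was 23.1, 23.5 and 22.9 in the control and 25.4, 16.8 and 17.3 in G200. In the control Hmox1 thus was on no array well above background, and in G200 on replicate 1 alone, by the rule that over 0.5 of a probe's spots must be, so no ratio is given for it.

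Hmox2 was measured well above background throughout. Its log2 ratio was 0.01, 0.17 and 0.22 on replicates 1, 2 and 3, averaging 0.14 ± 0.11 (SD, n = 3, adjusted p = 0.185). The 95% confidence interval ran from -0.04 to 0.31. All 3 values were above 0 and replicate 1 was close to it. With median centring the mean was 0.81 (adjusted p = 0.0170), which is 0.55 above the median of all genes, as compared with 0.18 above it with loess. Its adjusted p ran from 0.00644 to 0.577 over the alternatives.

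Blvra encodes biliverdin reductase A, which turns the biliverdin made by heme oxygenase into bilirubin. Its log2 ratio was 0.76, 0.56 and 0.85 on replicates 1, 2 and 3. The mean was 0.72 ± 0.15 (SD, n = 3), a ratio of 1.65 (adjusted p = 0.00201). All 3 arrays were well above 0, and 99.7% of the genes tested had a lower mean ratio. The net intensity was 64, 82 and 69 in the control and 344, 180 and 290 in G200, so that the G200 channel had the wider spread before scaling. The control was dim, and the mean rose to 0.91 and 1.04 with a normexp offset of 16 and 0 in place of 50. Blvra was above the median of all genes by 0.77 with loess and by 0.89 with median centring, and by 1.21 with the log ratio written by the authors' Feature Extraction run. Its adjusted p ran from 0.000883 to 0.124 over the alternatives.

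**Figure D3:**
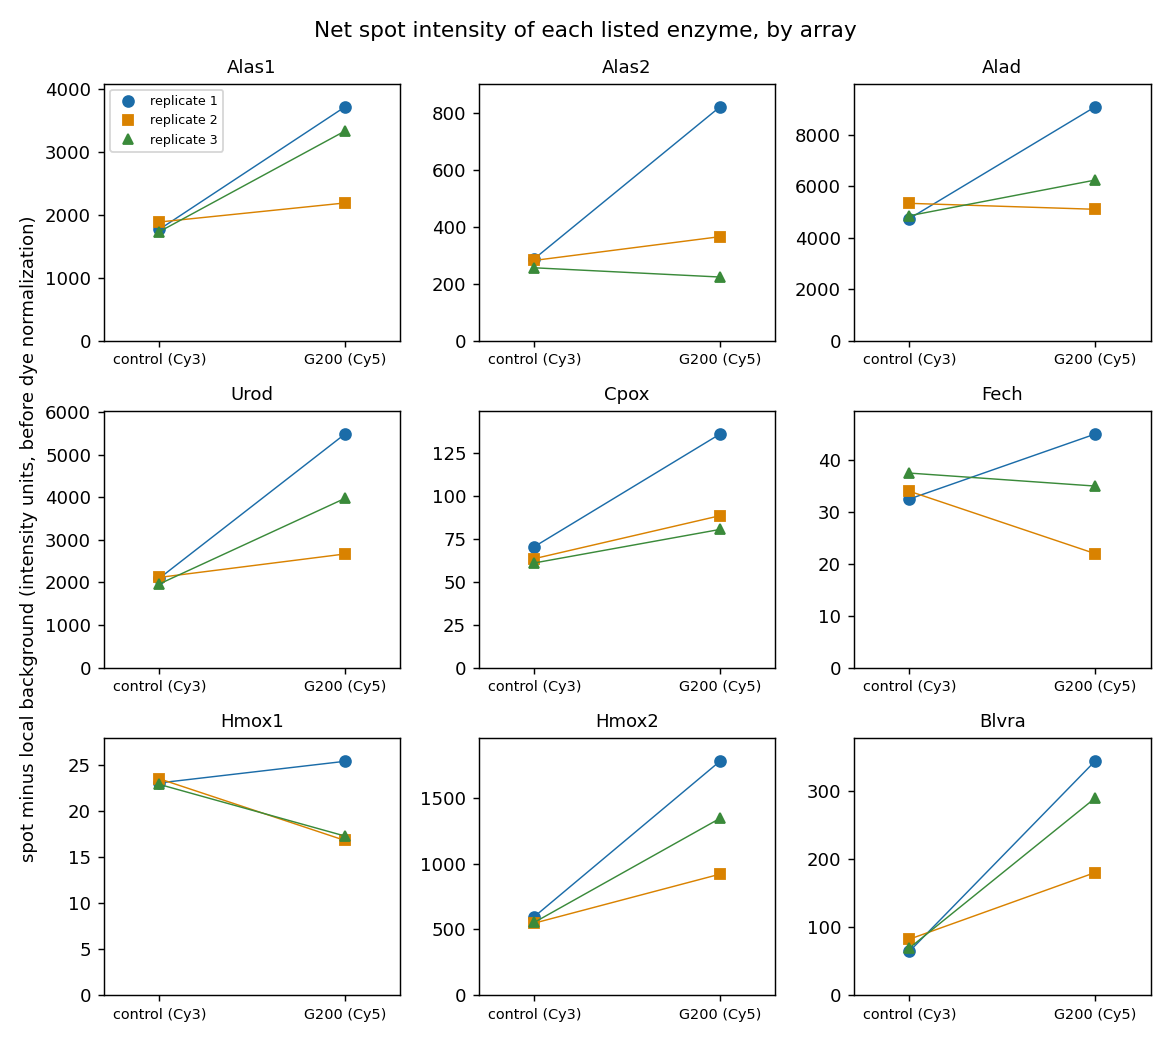
Net spot intensity (spot less local background, before dye normalization, linear axis from 0) of each of the 9 members in the control and in G200, with a line joining the channels of an array. The control points lie close together in each panel and the G200 points are spread wider; at this stage, before the dyes are scaled, most members are brighter in red.

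Before scaling, net intensities differed more between the arrays in G200 than in the control. Over the 11 enzymes of the path that were tested, the highest net intensity of a probe in the control was 1.03 to 1.28 times the lowest, with a median of 1.12. In G200 it was 1.51 to 3.68 times the lowest, with a median of 1.91, and Alas2 had the widest range. Over 14083 genes with net signals above 0 the medians were 1.13 in the control and 1.88 in G200, close to those of the path. The median net intensity of all probe spots was 35, 37 and 35.5 in green and 54.5, 29.5 and 39 in red, so the whole red channel shifted, and loess acts on such shifts. The channel from which the spread of the normalized ratios came was not tested. The precision of all these values is limited by the number of arrays.

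**Figure D4:**
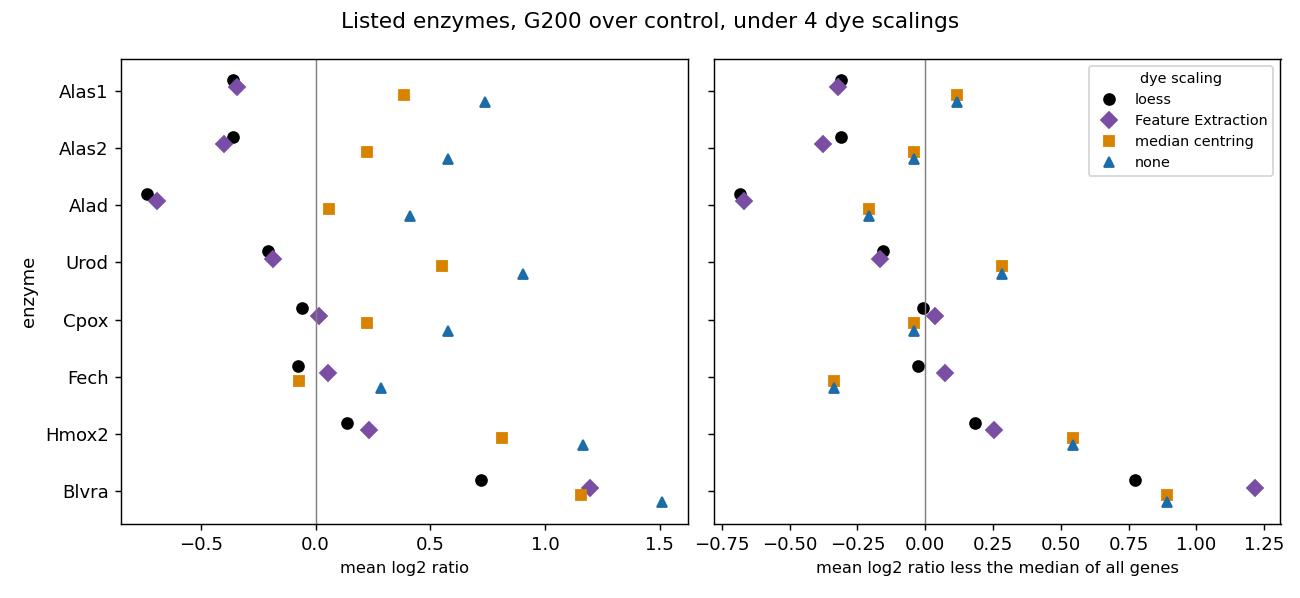
Mean log2 ratio of the 8 members tested under 4 ways of scaling the dyes (loess, the Feature Extraction log ratio, median centring and none), as it stands on the left and less the median of all genes on the right. On the right, Blvra and Hmox2 lie above 0 and Alad and Alas2 below it under all 4, whereas Alas1, Urod, Cpox and Fech change sides.

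Of 4 other enzymes of the path 3 were tested, and with loess 0 were called higher and 2 lower (Ppox and Blvrb). Over all genes tested, 11.5% were called higher and 26.0% lower with loess. With median centring 0 of the 3 were called higher and 0 lower, against 35.0% and 8.94% of all genes. With no normalization 1 was called higher and 0 lower, against 56.5% and 2.14%. Ppox, which encodes protoporphyrinogen oxidase, gave -0.66, -0.26 and -0.57 on replicates 1, 2 and 3, averaging -0.50 ± 0.21 (SD, n = 3, adjusted p = 0.0102). Its call was lost without replicate 3 (adjusted p = 0.0847, against 0.00715 to 0.763 over the alternatives), and its sign turned with median centring (0.04). Ppox lay below the median of all genes all the same, at -0.45 less that median with loess and -0.22 with median centring and with no normalization. Blvrb encodes biliverdin reductase B, a flavin reductase that acts on another biliverdin isomer. It gave -0.70, -0.68 and -0.68, averaging -0.69 ± 0.01 (SD, n = 3, adjusted p = 0.00126), and a second probe of the gene gave -0.58, -0.67 and -0.69. Both reductases therefore passed the threshold, in opposite directions, with loess. With median centring Blvrb was at -0.03 (adjusted p = 0.902) and Blvra at 1.16. Blvrb less the median of all genes was -0.64 with loess and -0.29 with median centring and with no normalization.

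Uros, which encodes uroporphyrinogen III synthase, was well above background on no array in the control and only on replicate 1 in G200, and was not tested.

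The promoters of the 3 members called and of Alas2, the member with the widest spread, are shown as the 250 bases before the gene's start in the RefSeq table of GRCr8, read on the strand of the gene. The table holds a promoter for 7 of the 9 members. Capitals mark matches, on either strand, to 6 spellings. They are ACGTG (a form of the core of hypoxia response elements) and CACGTG (an E-box, which holds ACGTG on both strands). AGATAA and TGATAA are forms of the GATA motif, and TGACNNNGC is the core of antioxidant response elements. GCATGCGC is part of a form of the NRF-1 motif. Other forms of these motifs were not searched.
Alas1: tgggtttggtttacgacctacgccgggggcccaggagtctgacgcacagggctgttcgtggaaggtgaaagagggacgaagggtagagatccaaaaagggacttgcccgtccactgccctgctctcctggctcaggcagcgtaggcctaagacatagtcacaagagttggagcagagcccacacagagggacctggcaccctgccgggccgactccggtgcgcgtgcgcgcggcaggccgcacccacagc
Alas2: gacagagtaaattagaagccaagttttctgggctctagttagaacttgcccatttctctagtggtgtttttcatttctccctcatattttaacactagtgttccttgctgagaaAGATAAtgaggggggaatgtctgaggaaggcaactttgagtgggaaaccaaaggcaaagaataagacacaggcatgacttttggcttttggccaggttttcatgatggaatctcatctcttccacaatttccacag
Alad: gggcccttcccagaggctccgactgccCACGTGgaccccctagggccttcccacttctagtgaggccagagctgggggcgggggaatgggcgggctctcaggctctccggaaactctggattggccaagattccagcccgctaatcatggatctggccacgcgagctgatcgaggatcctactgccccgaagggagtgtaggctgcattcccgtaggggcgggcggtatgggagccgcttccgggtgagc
Blvra: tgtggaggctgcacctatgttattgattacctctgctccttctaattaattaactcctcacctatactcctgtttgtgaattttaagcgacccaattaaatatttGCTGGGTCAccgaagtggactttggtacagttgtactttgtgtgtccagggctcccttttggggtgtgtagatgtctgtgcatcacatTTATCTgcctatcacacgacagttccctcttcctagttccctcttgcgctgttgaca
These windows lie at chr8:115768643-115768892 on the minus strand (Alas1), chrX:22895200-22895449 on the plus strand (Alas2), chr5:80987902-80988151 on the minus strand (Alad) and chr3:134802660-134802909 on the plus strand (Blvra). The Alas2 window holds AGATAA 136 bases before the start, and the Alad window holds CACGTG 223 bases before it. The Blvra window holds a match to TGACNNNGC that begins 145 bases before the start and 1 to AGATAA that begins 57 bases before it, both on the opposite strand, and the Alas1 window holds none of the 6. Counted by gene, of the 7 members with a promoter 3 hold ACGTG, 2 CACGTG, 3 AGATAA, 2 TGACNNNGC and 0 TGATAA or GCATGCGC, and Urod, Fech and Hmox2, which were not called, are among those with a match. Hmox2 has 2 such windows, of which 1 holds its matches. Counted by window instead, over the 33469 promoters of this length in the table, 16.6% hold ACGTG, 5.59% CACGTG, 10.3% AGATAA, 7.97% TGATAA, 10.1% TGACNNNGC and 2.20% GCATGCGC. A match describes these letters only, and binding was not measured.

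Among 20 carriers of heme, porphyrins and their precursors and other helpers, 17 were tested, 2 were called higher and 5 lower, and the median was -0.09. The list had 6 called higher and 3 lower with median centring (median 0.28), and 10 and 3 with no normalization (0.63). Its median less that of all genes was -0.04 with loess and 0.01 under either of these. For this and each list below, the shares of all genes called with loess are 11.5% higher and 26.0% lower. They are 35.0% and 8.94% with median centring, and 56.5% and 2.14% with no normalization. Of all genes, 868, 1613 and 171 were called higher and 2670, 3364 and 1404 lower without replicates 1, 2 and 3. With all arrays 1629 were called higher and 3689 lower. The widest falls were in Ambp, Hp and Hpx, whose plasma proteins bind heme or hemoglobin and are made in the liver. Their mean log2 ratios were -3.35 ± 1.47, -3.12 ± 1.51 and -3.09 ± 1.35 (SD, n = 3), with adjusted p-values of 0.00469, 0.00635 and 0.00468. These calls were lost with limma's robust variance model, which shrinks the variance of widely spread genes less (0.0708, 0.0836 and 0.0706). Slc25a28 (mitoferrin 2, a mitochondrial iron importer) gave -0.41 ± 0.13 (SD, n = 3, adjusted p = 0.00999) with loess, and its sign turned with median centring (0.28). A second, dimmer probe of this gene gave 0.02, -0.06 and 0.08, so its probes disagree.

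The 3 remaining genes called in this list with loess were named after their values were seen. Slc25a38, which carries glycine for the first step of synthesis into the mitochondrion, gave 0.18, 0.31 and 0.36, averaging 0.29 ± 0.09 (SD, n = 3, adjusted p = 0.0229). Slc25a39, a mitochondrial glutathione carrier, gave 0.40, 0.12 and 0.53, averaging 0.35 ± 0.21 (SD, n = 3, adjusted p = 0.0305). Abcb10, a mitochondrial transporter of the red cell lineage and other tissues, gave -0.37 ± 0.11 (SD, n = 3, adjusted p = 0.0118) with loess and 0.28 with median centring, and was not called without replicate 3 (0.0540) or with the Feature Extraction log ratio (0.0703). Both carriers that were higher remained above 0 with median centring (0.85 for Slc25a38 and 0.97 for Slc25a39), and the first step's enzyme Alas1 was on the other side of 0 from them with loess. With 1 array left out, Slc25a38 was called without replicate 1 alone and Slc25a39 without replicate 2 alone, and 4 to 6 genes of the list were called lower.

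Among 11 regulators of Hmox1 and targets of NRF2, a factor that drives Hmox1 under oxidative stress, 6 were tested, 1 was called higher and 0 lower, and the median was -0.02. In this list 2 were called higher with median centring and 3 with no normalization, and 0 lower under either. The gene called with loess was Gclc, the catalytic subunit of the enzyme that begins glutathione synthesis. It gave 0.61, 0.27 and 0.55 on replicates 1, 2 and 3, averaging 0.47 ± 0.18 (SD, n = 3, adjusted p = 0.00957), and without replicate 3 it was not called (0.0833). Bach1, the repressor of Hmox1, and the NRF2 target Nqo1 were not well above background in either colour on any array. Like Hmox1, which was so in G200 on replicate 1 alone, they were not tested.

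Among 12 genes of heme-using proteins, 9 were tested, 2 were called higher and 2 lower (against 11.5% and 26.0% of all genes), and the median was 0.05. The counts were 4 higher and 0 lower with median centring, and 6 and 0 with no normalization. The list's median was 0.48 above that of all genes under both of these, as compared with 0.10 with loess. Cyb5b (mitochondrial outer membrane cytochrome b5) gave 0.40 ± 0.12 (SD, n = 3, adjusted p = 0.00959) and Sdhc (the cytochrome b subunit of succinate dehydrogenase) 0.23 ± 0.06 (SD, n = 3, adjusted p = 0.0374). Tdo2, the tryptophan dioxygenase of the liver, was called lower (adjusted p = 0.0107) but was well above background in G200 on 1 of the 3 arrays only, so no size is given for it. With both colours required to be well above background, 8 genes were tested and 1 was called lower. Cat, the catalase of peroxisomes, gave -0.26 ± 0.05 (SD, n = 3, adjusted p = 0.0255) with loess and 0.31 with median centring. Without replicate 3 all 4 calls made with loess were lost (adjusted p = 0.0521 for Cyb5b, 0.203 for Sdhc, 0.0720 for Tdo2 and 0.181 for Cat), and Sdhc and Cat also lost theirs without replicate 1 (0.0629 and 0.0588) and without replicate 2 (0.0946 and 0.0526). Over all genes tested, the number called also fell without replicate 3, from 5318 to 1575 (171 higher and 1404 lower).

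Markers of other cells moved between the arrays as well. In bulk tissue, fewer cells of a type and less RNA per cell cannot be told apart. Of 14 genes of the red cell lineage 7 were tested, 0 were called higher and 3 lower (Slc4a1, which intercalated cells of the kidney also express, Ahsp and Klf1). Klf1 passed the filter through the control alone; with both colours required to be well above background 6 were tested and 2 called lower. The median of the 7 was 0.03, -0.17 and -0.89 on replicates 1, 2 and 3. The median over the arrays was -0.37 with loess and turned to 0.27 with median centring, where 1 was called lower, and without replicate 3 it was -0.13. Less the median of all genes, it was -0.32 with loess and 0.004 with median centring. Under no normalization 1 was called higher and 0 lower. Without replicates 1, 2 and 3, 3, 3 and 1 genes were called lower. Their summed normalized intensity was 139209, 125998 and 149844 in the control and 153446, 114938 and 61388 in G200, and the brightest probe was that of Hba-a1, though the levels of different probes do not rank genes by abundance. Replicate 3 of G200 was thus low for both the globins and Alas2. Hba-a1 gave 0.03, -0.29 and -1.55, beside the -0.01, -0.12 and -0.96 of Alas2.

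The defining red cell genes Sptb, Epb42 and Gata1 were not well above background in either colour on any array. Klf1 was not well above background in G200 on any array, so no fold is given for it. The part of red cell RNA in the values of Alas2 was not tested.

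Of 10 liver markers all 10 were tested and called lower, with a median of -1.75, -3.39 and -4.42 on replicates 1, 2 and 3. Their summed normalized intensity was 169843, 167016 and 192002 in the control and 47770, 16406 and 6856 in G200, and the brightest probes in the control were those of Ttr, Alb and Tf. All 10 were also called lower with median centring, and all these calls were lost with the robust variance model. The liver list differed widely between the arrays, as did Ambp, Hp and Hpx. Beside it, Alad gave -0.72, -0.70 and -0.78 and Alas1 -0.53, -0.39 and -0.16. Alad, Alas1, Urod, Blvrb and Tdo2 are expressed in liver, and the part of liver RNA in their values was not tested.

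**Figure D5:**
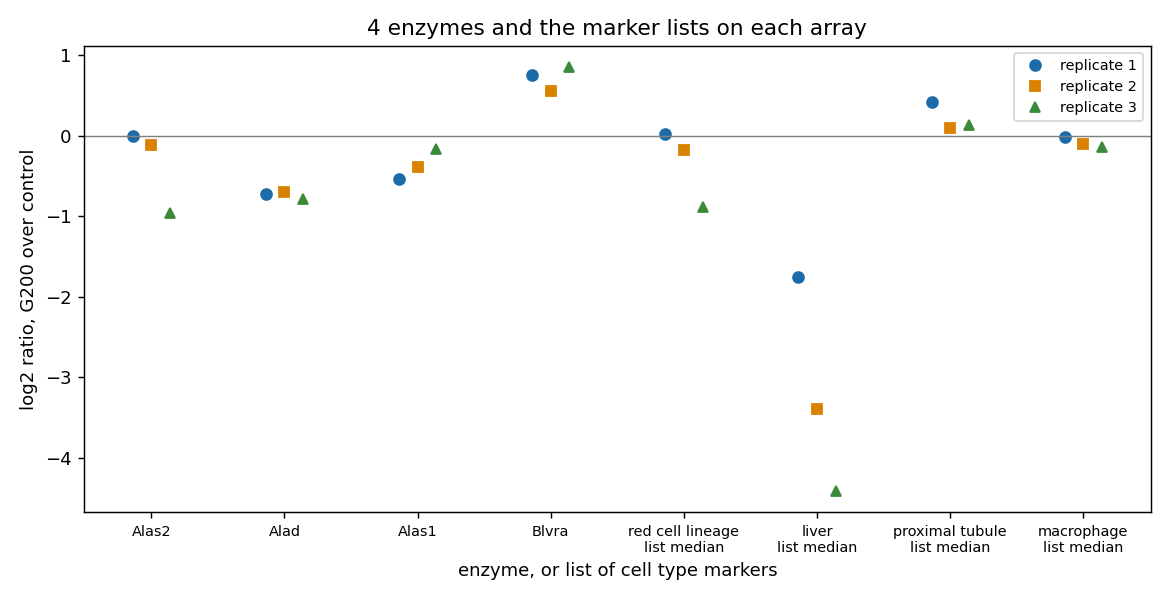
Log2 ratio of G200 over control on each array for 4 members and the median of 4 lists of cell type markers, with loess normalization. Replicate 3 is the lowest of the 3 for Alas2 and for the red cell lineage, the liver list falls to between -4.42 and -1.75, and the 3 arrays of Alad lie close together.

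Kidney markers were well above background. Of 6 genes of the proximal tubule all 6 were tested, 2 were called higher and 0 lower, with a median of 0.42, 0.10 and 0.14 on replicates 1, 2 and 3. Their summed normalized intensity was 20042, 15272 and 17365 in the control and 22178, 16193 and 17160 in G200, with Slc34a1 as the brightest probe in the control. Of these 6 genes, 4 were called higher with median centring, 5 with no normalization and 0 with the Feature Extraction log ratio. None of these settings called a gene lower. With all probes of a gene averaged, 1 was called higher and 0 lower. The list's median over the arrays was then 0.06, against 0.16 with the brightest probe of each gene. The list's median was 0.57 above that of all genes with median centring, as compared with 0.21 with loess. Of the 2 genes of the loop, Umod was called higher and Slc12a1 was not called, with a sum of 38951, 36096 and 38419 in the control and 64833, 55540 and 59014 in G200. Both loop genes were called higher with median centring and with no normalization, so the sign of Slc12a1 (-0.18 with loess) turned. Slc12a3 of the distal convoluted tubule (0.34) and Aqp2 of principal cells (-0.30) were not called with loess. Aqp2 was called higher with median centring (0.56) and no normalization (0.91), and lower without replicate 2 (-0.43). Slc12a3 was called higher with no normalization (1.25) and was at -0.10 without replicate 1. Without replicates 1, 2 and 3, the proximal tubule list had 1, 1 and 0 genes called higher and 1, 0 and 0 lower, and the loop had 1 higher each time.

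Of 6 macrophage markers, which stand for cells that take up red cells and break down their heme, 5 were tested, 0 were called higher and 1 lower (C1qb), and the median was -0.01, -0.10 and -0.14. Without replicates 1, 2 and 3, 0, 1 and 0 were called higher and 1, 0 and 0 lower. Their summed normalized intensity was 1795, 1456 and 1686 in the control and 1999, 1150 and 1414 in G200, and the probe of C1qb was the brightest in the control. The list's median over the arrays was -0.11 with loess and turned to 0.37 with median centring, where 0 were called higher and 0 lower. Less the median of all genes, it was -0.06 with loess and 0.10 with median centring. Under no normalization 3 were called higher and 0 lower. Cd163, the receptor for hemoglobin bound to haptoglobin, was well above background on 1 array in the control and on none in G200. The part of these cells in the values of Blvra and Hmox2 was not tested.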

How the data were processed

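The authors deposited 1 Feature Extraction table per array (version 11.5.1.1 per the file headers, 9.3.2.1 in the submitters' processing notes), with the median intensity of each spot and its local background and a log10 ratio of red over green. From the deposited intensities, log2 ratios were computed in R 4.3.3 with limma 3.58.1: normexp on all 44254 spots (offset 50), then loess within each array. Outlier spots (635, 736 and 945) and control spots were left out, and replicate spots averaged. A probe passed if over 0.5 of its spots were well above background in 1 colour on all 3 arrays (15649 probes), and the brightest stood for its gene. Of 30367 probes, 18355 matched a symbol in the RefSeq table of GRCr8 by accession. Genes were tested against 0 with lmFit and eBayes, two-sided, adjusted by Benjamini-Hochberg over all genes. Control and G200 are paired by sharing an array. The steps were tested on simulated data in which a small set of bright probes was changed, as many up as down. That setting does not test the scaling between the dyes when many genes change mostly in the same direction. All members are named, as are other enzymes of the path and up to 4 genes of each further list, by size of the mean log2 ratio among those called with 1 sign on all arrays. A few genes were measured but are not reported here, although list counts hold them. The members and lists were chosen with earlier results of these data known.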

Additional observations from a re-analysis of the deposited data

How the results depend on the processing

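The results were recomputed under 14 alternatives, and the slide or scan as a block was not run because all arrays share 1 slide and 1 scan. Of 112 values of the 8 members tested, 88 kept their direction and their side of the threshold, 8 kept the direction but lost the call, 2 gained a call and 14 turned sign, 11 of these with median centring or no normalization. Blvra and Hmox2 were above 0 under all 14, Blvra from 0.66 to 1.51 and called in 13 of them. Alad was called lower in 11, Alas1 was called in 7, in 1 of them as higher. The median of the members was -0.086 with the Feature Extraction log ratio, -0.20 and -0.18 with a normexp offset of 0 and 16, 0.30 with median centring, 0.66 with no normalization and -0.077 with no filter on dim probes, which adds Hmox1. With no normalization 8314 genes and 5 members passed the adjusted threshold. After adjustment, the methods' t-test, which there compares groups and here was run on the 3 log ratios against 0, left 2 genes and 0 members, and at an unadjusted threshold of 0.05 it called 4472 genes and 2 members. In limma's test 5318 genes passed the adjusted threshold. Leaving out 1 array gave 1575 (without replicate 3) to 4977 genes, 2 members each time, and a members' median of -0.17 to -0.056. The fit of separate channels with no replicate block called 4102 genes and the same number of members, 3, and takes the 3 control channels as 3 samples, although they were counted as 1. Signs of the values as they stand, not less the median of all genes, were followed gene by gene for 27 genes. Outside these, Aqp2 turned with median centring (0.56) and with no normalization (0.91), as did Slc12a1. Among the 27, the sign turned with median centring for Alas1 (0.38), Alas2 (0.23), Alad (0.059), Urod (0.55), Cpox (0.22), Ppox (0.045), Slc25a28 (0.28), Abcb10 (0.28), Cat (0.31), Hba-a1 (0.30) and Ahsp (0.032). With no normalization it turned for Alas1 (0.74), Alas2 (0.58), Alad (0.41), Urod (0.90), Cpox (0.58), Fech (0.28), Ppox (0.40), Blvrb (0.33), Slc25a28 (0.63), Abcb10 (0.64), Cat (0.67), Hba-a1 (0.65), Slc4a1 (0.34) and Ahsp (0.39). Cpox also turned with the Feature Extraction log ratio (0.016) and without replicate 1 (0.0075), and Fech with the former (0.052). The cause was not tested. Signal over background limits Fech, Cpox and Hmox1, whose probes were dim, and Blvra, which was dim in the control.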
